A study of Mus musculus with 4 samples.

Results

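The 10 heat shock chaperone genes described here are Hspa1a, Hspa1b, Hspa8, Hsph1, Hsp90aa1, Hsp90ab1, Dnajb1, Hspb1, Hspd1 and Bag3, out of 54532 genes in the deposited table. They were taken from a list of names and matched to the table's Ensembl identifiers through the GENCODE M21 annotation. All 10 were found, and all 10 had a mean of at least 1 FPKM (fragments scaled by gene length and library size) and were tested. The assay was RNA-seq, on total RNA of cells from CB6F1 mice, an F1 hybrid laboratory strain. The labels call the cells MSCs, and per the labels' protocols they came from digested whole bone marrow and were grown in high-glucose DMEM with serum. The sample titles carry the term aGVHD in both groups, and the labels give no untreated or healthy group. An agent that the labels name only as R was applied in 2 libraries, at 0.5 µM as the dose unit is read here, and the vehicle DMSO in the other 2. The identity of R, the time of exposure and the age of the mice are missing from the labels. Nothing in the labels ties the replicates to separate animals or cultures, so each p-value reflects the spread among 4 libraries, which may be technical.

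Heat shock proteins bind unfolded proteins and help them fold, reassemble or be destroyed. In a resting cell the transcription factor HSF1 is held inactive by chaperones, and when unfolded proteins occupy those chaperones HSF1 is released and binds heat shock elements, repeats of the unit GAA in alternating orientation, in front of its target genes. The inducible genes among the members are the HSP70 genes Hspa1a and Hspa1b, the HSP110 gene Hsph1, the HSP90 gene Hsp90aa1, the J domain gene Dnajb1, the small heat shock gene Hspb1 and the cochaperone gene Bag3. Hspa8 and Hsp90ab1 encode the constitutive HSP70 and HSP90 proteins, which are abundant without stress. Hspd1 encodes HSP60, the chaperonin of the mitochondrial matrix, and was therefore kept apart from the cytosolic genes although it was listed with them. Hsph1 and Hsp90aa1 are also transcribed without stress, so the division into inducible and constitutive genes is one of degree.

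The sequence before a RefSeq start of transcription is shown for Hspb1, Hsph1 and 1 of the near-identical HSP70 pair, Hspa1b. The R and vehicle values of these genes did not overlap. Hspd1 is shown too, and all of these stretches hold heat shock element units. The RefSeq promoter table (GRCm38.p6) matched 7 of the 10 genes: Hspa1a, Hspa1b, Hsph1, Dnajb1, Hspb1, Bag3 and Hspd1. The 250 bases before each annotated start were searched on both strands for 2 adjoining units, GAANNTTC or TTCNNGAA, each of which reads the same on either strand. Stretches are printed 5′ to 3′ on the strand of the gene, with the matches in capitals. That of Hspa1b is chr17:34959239-34959488, that of Hspb1 chr5:135887769-135887868, that of Hsph1 chr5:149636351-149636380 and that of Hspd1 chr1:55088059-55088076.
Hspa1b: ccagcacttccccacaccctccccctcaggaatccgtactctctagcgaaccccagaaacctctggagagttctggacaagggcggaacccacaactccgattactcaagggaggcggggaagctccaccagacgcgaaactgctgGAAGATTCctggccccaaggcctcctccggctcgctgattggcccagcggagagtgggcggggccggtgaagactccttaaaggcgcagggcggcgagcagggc
Hspb1: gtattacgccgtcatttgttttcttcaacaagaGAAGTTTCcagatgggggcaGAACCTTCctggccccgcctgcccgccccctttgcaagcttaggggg
Hsph1: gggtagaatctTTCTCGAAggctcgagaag
Hspd1: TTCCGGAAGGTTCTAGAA

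Of the 7 genes, 5 held the 2-unit motif in at least 1 window: Hspa1a, Hspa1b, Hsph1, Hspb1 and Hspd1. It was absent from the windows of Bag3 and Dnajb1, which says only that these letters do not occur in the 250 bases before their RefSeq starts. Among all 27025 genes of the table, 14.5% held it in at least 1 window. In Hspa1b and Hspa1a the match lies 104 to 97 bases before the start. The 2 windows were identical at 247 of 250 positions, and the 3 differences, written as the base of Hspa1b, its position counted back from the start and the base of Hspa1a, are T207C, C204T and G2T. Hsph1 held 1 match, 33 to 26 bases before one of its starts and 54 to 47 before the other. Hspb1 held 2 matches, at 117 to 110 and at 97 to 90 bases before its start. Hspd1 held 3 overlapping matches before the second of its 2 starts, which together make the 3-unit forms TTCNNGAANNTTC and GAANNTTCNNGAA, and a 3-unit form was found in 0.514% of all genes. The matches of Hsph1 and Hspd1 lie inside the spans that GENCODE gives these genes, chr5:149614287-149636376 and chr1:55077835-55088243. They are thus before a RefSeq start but not before the whole gene. A match of letters is a description of the sequence, and binding was not measured.

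Markers of another cell type were abundant under the label MSC and differed between the groups. Of 12 macrophage markers, all had log2 fold changes below 0 in R, from -1.90 for Fcgr1 to -0.13 for Adgre1, with a median of -0.64. The groups overlapped for Mrc1 (-0.19), and limma called 3 of the 12 lower (Fcgr1, Ctss and Itgam). The summed level of these 12 was 9534 to 11582 FPKM in R and 16378 to 18555 FPKM with vehicle. Most of it was Lyz2, the lysozyme gene of macrophages. The summed level of 12 stromal markers was 1899 to 1936 FPKM in R and 1512 to 1539 FPKM with vehicle. The median log2 fold change of the 10 tested was 0.21, with 7 above 0, 3 below and Ly6a called lower. Col1a1 and Col1a2 had fold changes of 0.64 and 0.56, and Cxcl12 and Pdgfra of -0.051 and -0.16. The stromal markers Lepr and Thy1 were at 0.265 to 0.69 FPKM in all libraries. Endothelial markers summed to at most 6.15 FPKM, neutrophil, erythroid and T and B cell markers to at most 0.285 FPKM each, and Ly6g, Mpo and Cd3e were at 0 in all libraries. In bulk RNA, fewer cells of a type and less RNA per cell cannot be told apart, and the part of this difference in the heat shock values was not tested. R replicate 2 stood apart in scale, with FPKM summing to 287360 where the other libraries had 333130 to 345709. Rescaling to TPM shifted the all-gene median log2 fold change to 0.13, and on that scale Hsp90aa1 and Hspd1 had fold changes of 0.023 and 0.12.

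None of the 10 genes passed the test between R and vehicle, which was limma's moderated test on log2(FPKM + 1) across 12176 genes with Benjamini-Hochberg adjustment at an adjusted p under 0.05. The background rate of these calls was 0.345% of tested genes higher and 1.37% lower in R. On recovered reads voom called 1 of the 10 higher, Hspa1b, beside 0.718% of its 11564 genes higher and 2.03% lower. The members were chosen with earlier results of these data known, and Hspa1a and Hspa1b can share reads. At limma's unadjusted p under 0.05, 4 of the 10 were higher in R, namely Hspa1a, Hspa1b, Hsph1 and Hspb1, and 0 were lower. Of all tested genes 7.16% were higher and 8.83% lower at that threshold. The values of these 4 genes did not overlap between groups, both R libraries lying above both vehicle libraries, which held for 22.7% of all tested genes. Hspa8 alone had both R libraries below both vehicle libraries, which held for 25.2% of tested genes. The median log2 fold change was 0.42 for the 7 inducible genes and 0.094 for all 10, beside a median of 8.3e-05 for all tested genes.

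**Figure D1:**
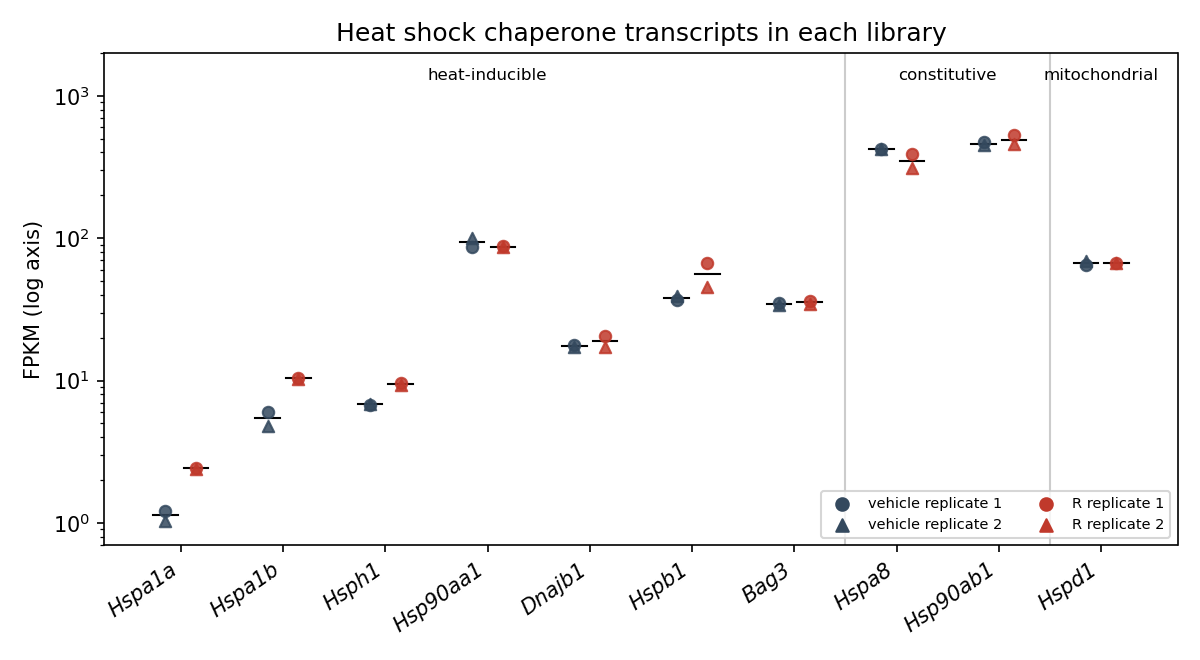
FPKM of each heat shock gene (log axis) in the 2 vehicle and 2 R libraries, with circles for replicate 1, triangles for replicate 2 and bars for group means. Both R libraries lie above both vehicle libraries for Hspa1a, Hspa1b, Hsph1 and Hspb1, and Hspa8 and Hsp90ab1 stand highest in every library.

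The largest differences were those of the HSP70 pair, whose proteins are the stress-inducible cytosolic HSP70. Hspa1b was at 10.5 and 10.3 FPKM in R replicates 1 and 2 and at 6.05 and 4.81 FPKM in the corresponding vehicle replicates. The R libraries lay close together and above both vehicle libraries, with a ratio of means of 1.91. The log2 fold change was 0.83 (SE 0.140, 95% interval 0.49 to 1.17), at limma's adjusted p = 0.0541, just outside the threshold. The share of all tested genes called higher was 0.345% as reported, 0.718% with voom on recovered reads and 1.72% with a length trend removed. Hspa1b was called in 6 of 11 processing alternatives, some of which left 1 library in a group. It was at limma's adjusted p = 0.032 with voom and adjusted p = 0.0269 with a length trend removed. Without vehicle replicate 2 it was not called (adjusted p = 0.242), and its log2 fold change was then 0.69. The log2 fold change was 0.82 without R replicate 1, 0.84 without R replicate 2 and 0.97 without vehicle replicate 1. Each fit with 1 library left out called more of all tested genes higher than the fit as reported.

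Hspa1a was at 2.44 and 2.40 FPKM in R and at 1.22 and 1.03 FPKM with vehicle, a ratio of means of 2.15. These are low levels, from 140 and 129 reads in R and 64 and 55 reads in vehicle, so counting error alone was up to 13.5% of a value. The log2 fold change was 0.69 (SE 0.143, 95% interval 0.34 to 1.04; limma, adjusted p = 0.0918) and 1.10 by voom on reads, a scale that does not shrink low values as the added 1 does. It was called in 1 of 10 alternatives, with a length trend removed (limma, adjusted p = 0.0491), where 1.72% of all tested genes were called higher.

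Hspa1a and Hspa1b are near-identical copies, at chr17:34969190-34972156 and chr17:34956436-34959238 (GRCm38, minus strand). Of the 50-base windows in the Hspa1b transcript, 62.3% also occur in Hspa1a, so reads can be divided between them and each value alone is uncertain. Hspa1b stood 4.28-fold above Hspa1a in both R libraries and 4.95-fold and 4.66-fold in the vehicle libraries. Their reads summed to 706 and 651 in R and to 363 and 297 in vehicle. As CPM of the library size implied by the FPKM values this was 36.3 ± 0.422 in R and 18.6 ± 2.85 in vehicle (SD, n = 2 each), a ratio of 1.95. If each shared read was counted once, the sum does not depend on how reads were split between the pair. How such reads were counted is not stated. Of the Hspa1a windows 66.3% occur in other genes, and 58.8% in Hspa1b.

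Hsph1 (chr5:149614287-149636376), the HSP110 gene whose product exchanges nucleotides on HSP70, was at 9.59 and 9.33 FPKM in R and at 6.75 and 6.87 FPKM with vehicle. The replicates of each group lay close together and the groups did not overlap. Its log2 fold change was 0.42 (SE 0.114, 95% interval 0.14 to 0.70), with limma's adjusted p = 0.154. The fold change lay between 0.40 and 0.59 in 11 alternatives, and limma called it in 0 of them. None of the 50-base windows of the Hsph1 transcript occurs in another annotated transcript.

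Hspb1 (chr5:135887919-135889563), which encodes the small heat shock protein HSP25, differed mostly through 1 library. It was at 66.9 and 45.2 FPKM in R and at 36.6 and 39.5 FPKM with vehicle. R replicate 1 stood far above the other 3 libraries, and R replicate 2 stood only a little above vehicle replicate 2. The log2 fold change was 0.52 (SE 0.204, 95% interval 0.020 to 1.03; limma, adjusted p = 0.294). It was 0.24 without R replicate 1 and 0.80 without R replicate 2. Short genes were lower in R replicate 2 than in R replicate 1: with tested genes divided by length into 4 sets, the median log2 difference of replicate 1 minus replicate 2 was 0.29 in the shortest set and -0.22 in the longest. The same differences between vehicle replicates 1 and 2 were 0.095 and -0.083. Hspb1, at an exon length of 1031 bases, is in the shortest set, and with a length trend removed its fold change was 0.57 (limma, adjusted p = 0.0824). Of its 50-base windows 51.6% occur in Hsp25-ps1, which was listed at no more than 0.164 FPKM.

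The other 3 inducible genes had R and vehicle values that overlapped. Dnajb1 (chr8:83608193-83612653), the J domain protein that hands unfolded proteins to HSP70, was at 20.5 and 17.2 FPKM in R and 17.9 and 17.1 FPKM with vehicle, so the groups overlapped. Its log2 fold change was 0.10 (95% interval -0.23 to 0.43; limma, adjusted p = 0.773), and -0.020 without R replicate 1. Bag3 (chr7:128523616-128546981), which links HSP70 to small heat shock proteins and to autophagy, was at 36.3 and 34.7 FPKM in R and 35.1 and 34.1 FPKM with vehicle. Its 4 values spanned less than any other member's on the log2 scale, a range of 0.088, and its fold change was 0.037 (95% interval -0.25 to 0.33; limma, adjusted p = 0.912).

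Hsp90aa1 (chr12:110690605-110702728), the inducible HSP90 gene, was at 88.0 and 86.1 FPKM in R and 87.2 and 101 FPKM with vehicle. The values overlapped, vehicle replicate 2 being the highest, and the log2 fold change was -0.11 (95% interval -0.46 to 0.24; limma, adjusted p = 0.761). Of its 50-base windows 51.5% occur in Gm12346, at 1.86 to 2.08 FPKM. For these 3 genes the intervals end at 0.43, 0.33 and 0.24, below the fold changes of Hspa1a and Hspa1b, 0.69 and 0.83. The intervals of Hspa1a and Hspa1b were 0.34 to 1.04 and 0.49 to 1.17, and that of Hspa1a overlaps that of Dnajb1. The difference between genes was not tested.

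**Figure D2:**
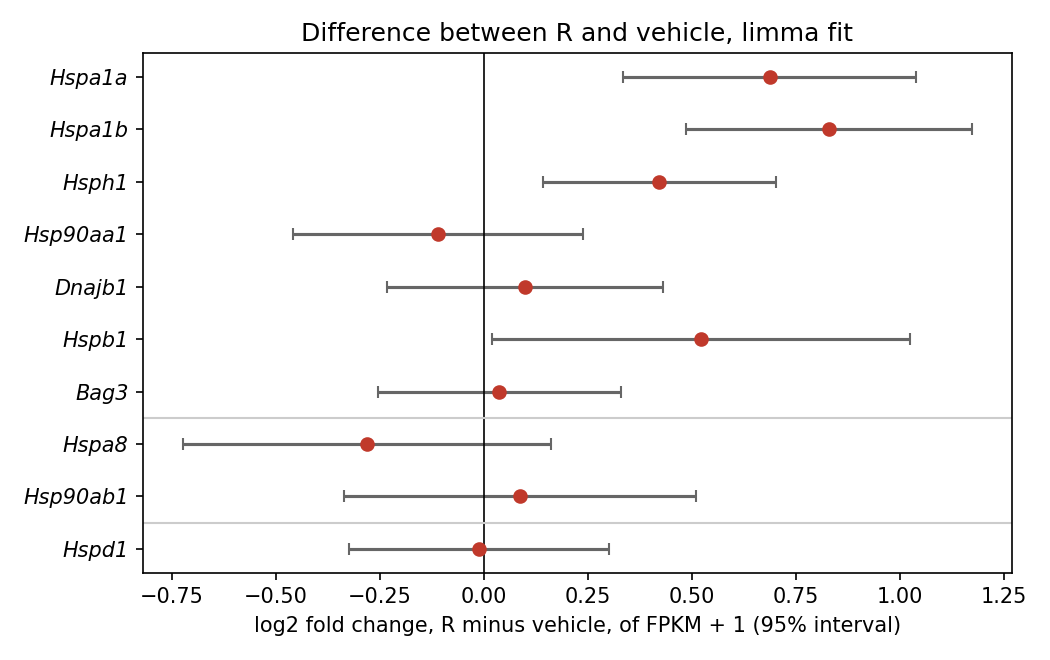
Log2 fold change of each heat shock gene, R minus vehicle, with its 95% interval from limma. The intervals of Hspa1a, Hspa1b, Hsph1 and Hspb1 lie above 0 before adjustment for the number of genes, and the other 6 include 0.

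The constitutive genes were the most abundant members. Hspa8 (chr9:40800984-40810087), the constitutive HSP70, was at 389 and 313 FPKM in R and at 426 and 423 FPKM with vehicle. Both R libraries were lower, R replicate 2 the more so, while the vehicle libraries were nearly equal. The log2 fold change was -0.28 (95% interval -0.72 to 0.16; limma, adjusted p = 0.515), and it moved to -0.44 without R replicate 1, -0.12 without R replicate 2 and -0.083 after quantile normalization. Of the 50-base windows of Hspa8, 74.8% occur in transcripts of other genes, most of them in Gm15459, which was listed at 0 FPKM in all 4 libraries. Hsp90ab1 (chr17:45567775-45573271), the constitutive HSP90, was at 528 and 458 FPKM in R and at 473 and 452 FPKM with vehicle, and the groups overlapped. Its log2 fold change was 0.088 (95% interval -0.33 to 0.51; limma, adjusted p = 0.852), and -0.013 without R replicate 1.

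Hspd1 (chr1:55077835-55088243), the mitochondrial HSP60, was at 66.7 and 66.5 FPKM in R and at 64.6 and 69.7 FPKM with vehicle. The R values lay between the vehicle values, and the log2 fold change was -0.011 (95% interval -0.32 to 0.30; limma, adjusted p = 0.977). Of its 50-base windows 42.8% occur in Hspd1-ps3, at 2.29 to 5.89 FPKM. Hspe1, the gene of its partner HSP10, overlaps its first bases on the opposite strand and was at 69.7 and 47.1 FPKM in R and 71.5 and 60.5 FPKM with vehicle, with overlapping groups.

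Levels per length set the members in the same broad order in both groups. Hsp90ab1 and Hspa8 had group means of 351 to 493 FPKM, followed by Hsp90aa1 at 87.1 and 94.3, Hspd1 at 66.6 and 67.2, Hspb1 at 56.1 and 38.0, Bag3 at 35.5 and 34.6 and Dnajb1 at 18.9 and 17.5 FPKM in R and vehicle. The lowest were Hsph1 and Hspa1b, at 9.46 and 10.4 FPKM in R and 6.81 and 5.43 FPKM with vehicle, and then Hspa1a. Hsp90ab1 stood above Hspa8 in all 4 libraries in FPKM, which divides by the exon length of the whole gene. That length was 4301 bases for Hspa8 and 2999 for Hsp90ab1, while their longest coding transcripts had 2394 and 2520 bases. For Hsph1 it was 7266 bases, beside a transcript of 3802. Orders and percentages between genes therefore depend on the length used. The order of Hspb1 and Hspd1 in R is not firm, since Hspb1 was at 56.1 ± 15.4 FPKM (SD, n = 2), and that of Hsph1 and Hspa1b differed between R and vehicle. Within each library Hspa1b was 2.69 and 3.29% of Hspa8 in R and 1.42 and 1.14% in vehicle. The inducible Hsp90aa1 was 16.7 and 18.8% of Hsp90ab1 in R and 18.4 and 22.4% in vehicle, which overlap. The inducible share was thus higher in both R libraries for the HSP70 pair and not for the HSP90 pair.

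As a class, the inducible genes had a mean log2(FPKM + 1) of 4.42 and 4.28 in R and of 4.0 and 3.98 in vehicle. The constitutive pair had means of 8.83 and 8.57 in R and of 8.81 and 8.77 in vehicle, so their groups overlapped. The difference, inducible minus constitutive, was -4.41 and -4.29 in R and -4.81 and -4.79 in vehicle. It was 0.45 higher in R on average, where the SD between replicates was 0.085 in R and 0.011 in vehicle. The value stayed between 0.28 and 0.54 in the alternatives and was lowest after quantile normalization. Hspa1a and Hspa1b, which can share reads, each count in the inducible mean and had its largest fold changes, 0.69 and 0.83. Those of Hspb1 and Hsph1 were 0.52 and 0.42, and those of Dnajb1, Bag3 and Hsp90aa1 0.10, 0.037 and -0.11. No alternative left the HSP70 pair out. The inducible mean was 0.36 higher in R and the constitutive mean 0.097 lower on average, the latter with Hspa8 below and Hsp90ab1 above its vehicle mean. No test was made of this score, since the genes were chosen.

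**Figure D3:**
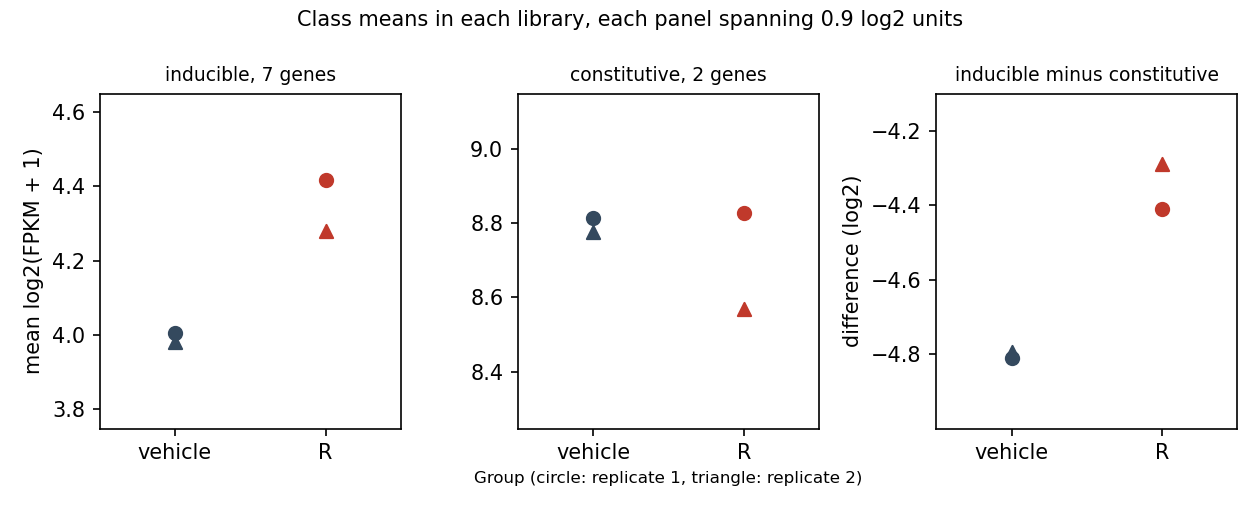
Mean log2(FPKM + 1) of the 7 inducible genes, of the 2 constitutive genes and their difference in each library (circles replicate 1, triangles replicate 2). The R libraries lie above the vehicle libraries in the inducible and difference panels, and R replicate 2 is the lowest in the constitutive panel.

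None of the wider chaperone genes was called either. A total of 144 further genes in 11 lists covered HSF factors, other HSF1 targets, HSP70 and J domain relatives, HSP90 cochaperones, small heat shock proteins, BAG and exchange factors, chaperonins, chaperones of the endoplasmic reticulum and of mitochondria, and immediate early genes. Of the 134 tested, limma called 0 higher and 0 lower after adjustment, 7 were higher and 4 lower at an unadjusted p under 0.05, and the median log2 fold change was -0.026. The share at an unadjusted p under 0.05 was 8.21%, beside 16.0% of all tested genes. Voom on recovered reads called 0 of 125. Without R replicate 1 limma called 0 higher and 6 lower of the 134, beside 2.56% higher and 5.46% lower of all tested genes. Without R replicate 2 it called 6 higher and 0 lower, beside 3.60% and 3.37%. The median of the 134 genes was above 0 without R replicate 2 (0.029), vehicle replicate 1 (0.00062) or vehicle replicate 2 (0.0073), with quantile normalization (0.017) and in TPM (0.10, beside 0.13 for all genes).

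HSF1 itself differed by less than its replicates did. Hsf1 was at 7.99 and 5.83 FPKM in R and 6.84 and 5.77 FPKM with vehicle, with a log2 fold change of 0.11 (limma, adjusted p = 0.822) that was -0.092 without R replicate 1. Hsf2, a related factor, was at 1.95 and 2.01 FPKM in R and 2.41 and 2.48 FPKM with vehicle (limma, adjusted p = 0.513). Of 11 tested HSF factors and regulators 0 reached an unadjusted p under 0.05, and the smallest p was that of Ier5, a regulator of HSF1, at 44.8 ± 0.758 FPKM in R and 37.3 ± 0.496 FPKM with vehicle (SD, n = 2 each; limma, adjusted p = 0.367).

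Of 20 other HSF1 targets, 8 had log2 fold changes above 0 and 12 below, with a median of -0.060 and 2 at an unadjusted p under 0.05. That median was 0.068 without R replicate 2, -0.11 without vehicle replicate 2 and 0.066 on the TPM scale. The 2 genes were Serpinh1 and Hspb8, chosen by the smallest p in their lists. Serpinh1, which encodes the collagen chaperone HSP47, was at 625 and 543 FPKM in R and at 391 and 371 FPKM with vehicle. Its log2 fold change was 0.61 (limma, adjusted p = 0.169), and it was called in 4 of 11 alternatives, TPM and quantile normalization among them. Those settings called 0.476% and 0.509% of all tested genes higher. Hspb8, the small heat shock partner of BAG3, was at 16.1 ± 1.34 FPKM in R and 12.7 ± 0.683 FPKM with vehicle (SD, n = 2 each; limma, adjusted p = 0.297). Cryab, another small heat shock protein, was at 72.8 and 51.5 FPKM in R and 51.1 and 43.0 FPKM with vehicle, again with R replicate 1 far above the rest.

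Among 24 tested J domain genes, 18 had log2 fold changes below 0, beside 6087 of all 12176 tested genes. The median of the 24 was -0.072, and 0.053 on the TPM scale. At limma's unadjusted p under 0.05, 2 of them were higher in R, Dnaja4 and Dnajb2, and 0 lower. The shares of all tested genes were 7.16% and 8.83%. The smallest p was that of Dnajb2, at 9.78 ± 0.568 FPKM in R and 6.59 ± 0.136 FPKM with vehicle (SD, n = 2 each; limma, adjusted p = 0.116). The HSP90 cochaperone Ptges3, p23, was at 35.8 ± 4.32 FPKM in R and 48.1 ± 4.58 FPKM with vehicle (SD, n = 2 each; limma, adjusted p = 0.252). Fkbp5, an HSP90 cochaperone induced by glucocorticoids, was at 1.75 ± 0.0881 and 1.49 ± 0.213 FPKM (SD, n = 2 each). The chaperonin and prefoldin genes and the BAG and exchange factors had 0 members at an unadjusted p under 0.05, their smallest being Pfdn4 and Grpel2 (limma, adjusted p = 0.366 and adjusted p = 0.33).

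In the endoplasmic reticulum Hspa5, the resident HSP70 known as BiP, was at 229 and 217 FPKM in R and 209 and 215 FPKM with vehicle, a log2 fold change of 0.070 (limma, adjusted p = 0.861). Of 21 genes of this compartment's chaperones and unfolded protein response, 11 were above 0 and 10 below, with a median of 0.053. Both R libraries lay above both vehicle libraries for 8 of them and below for 2, beside 22.7% and 25.2% of all tested genes. At limma's unadjusted p under 0.05, 2 were higher, Serpinh1 and Hyou1, and 0 lower, beside 7.16% and 8.83%. Hyou1, the HSP110 relative of Hspa5, was at 23.0 ± 0.281 FPKM in R and 18.2 ± 0.891 FPKM with vehicle (SD, n = 2 each; limma, adjusted p = 0.263). Of 10 mitochondrial genes the smallest p was that of the protease gene Htra2, at 14.9 ± 0.937 and 11.6 ± 0.0354 FPKM (SD, n = 2 each; limma, adjusted p = 0.251).

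Immediate early genes, which often accompany heat shock genes in handled cells, numbered 16, with a median of -0.061 and 0 higher and 3 lower in R at an unadjusted p under 0.05. Their median was -0.19 without R replicate 1, 0.070 without R replicate 2, 0.0053 with quantile normalization and 0.072 in TPM. Ier3 was at 79.8 ± 4.24 FPKM in R and 121 ± 12.1 FPKM with vehicle (SD, n = 2 each; limma, adjusted p = 0.126). Fos was at 175 and 141 FPKM in R and 171 and 192 FPKM with vehicle, which overlap, and Atf3, a stress-induced transcription factor, was at 40.8 ± 9.72 against 56.2 ± 3.44 FPKM (SD, n = 2 each; limma, adjusted p = 0.304).

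Hspa1b had the largest range of the members over the 4 libraries, 0.98 on the log2 scale, followed by Hspb1 with 0.85. The genes whose centred log2 profile was nearest to that of Hspa1b among 7157 genes of at least 5 FPKM were Hnrnpa0, Slc7a5, Cxcl14, Pcx and Pgp, at root mean square differences of 0.073 to 0.093 log2 over 4 libraries. Hnrnpa0 was at 127 and 125 FPKM in R and at 74.8 and 70.7 FPKM with vehicle, and its log2 fold change was 0.79 (limma, adjusted p = 0.052). With 4 libraries a profile is little more than the difference between groups.

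**Figure D4:**
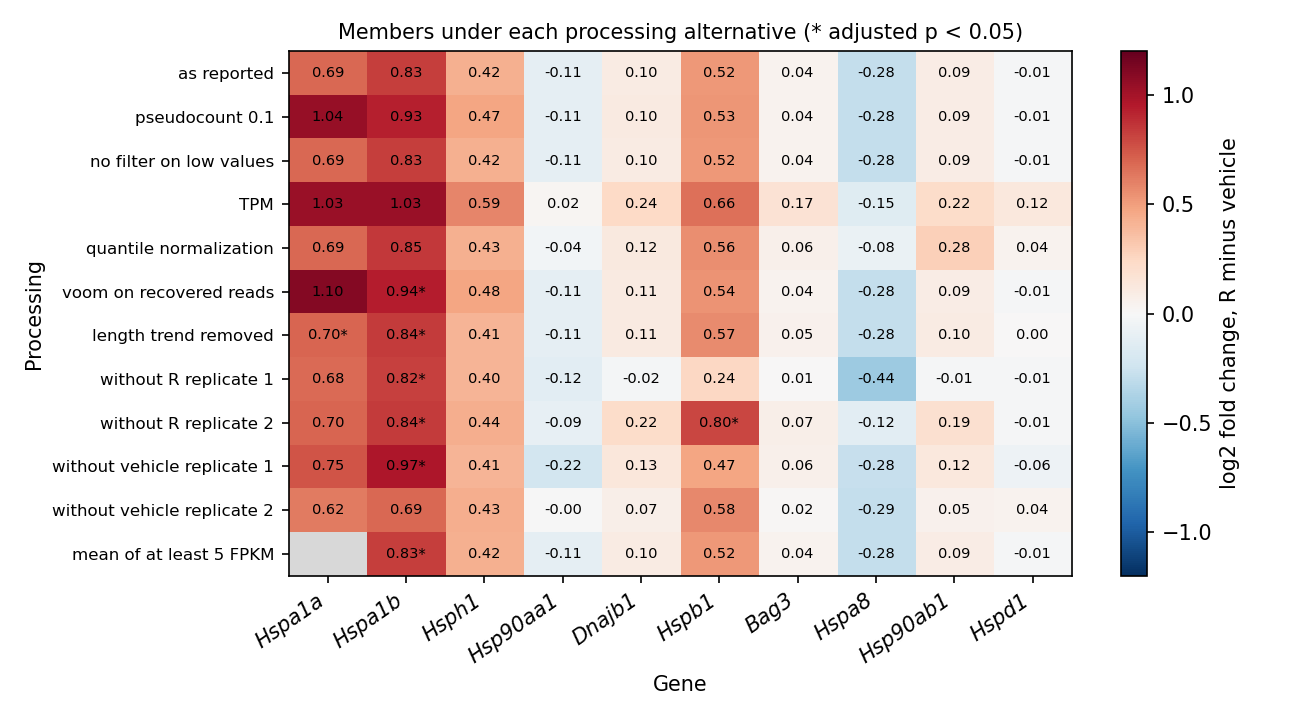
Log2 fold change of each heat shock gene (columns) as reported and under each processing alternative (rows), with an asterisk at an adjusted p under 0.05 and grey where the gene was not tested. Hspa1b stays between 0.69 and 1.03 and is called in 6 of the 11 alternatives, while Dnajb1, Bag3, Hsp90aa1, Hsp90ab1 and Hspd1 stay between -0.22 and 0.28 and are called in none.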

How the data were processed

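The authors deposited 1 table of FPKM values per gene and library, per the file headers. GRCm38, mm10 and edgeR 3.18.1 are named per the submitters' processing notes. The aligner, counter, annotation and handling of reads with several matches are not stated in the sources at hand. Its 10 unnamed columns are empty. Of 54532 identifiers, 54495 matched GENCODE M21 (GRCm38). FPKM times union exon length gave whole reads within 0.02 for 96.3 to 96.4% of values above 0, among them all 10 members, and 16534440 to 18085183 reads per library, so 1 FPKM in a gene of 2 kb was about 35 to 39 reads. Counting errors cover reads only.

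The R and vehicle libraries were tested in limma 3.58.1 (R 4.3.3, eBayes with trend) on log2(FPKM + 1), in 12176 genes whose mean reached 1 FPKM. Fold changes on that scale understate low genes. Residual degrees of freedom were 2, to which the prior added 3.83. On simulated libraries with 200 changed genes of 12173, 223 were called, 26 of them falsely. Of log2 fold changes of 1, 94% were recovered. No smaller change was simulated, and the largest of the members was 0.83 as reported. The simulated counts had the same dispersion in every gene, and no length trend or correlated replicate differences. These rates therefore need not hold for the real libraries, which had both. Named genes were all members, the called or smallest-p genes of each list, 9 fixed checks and the 5 nearest profiles to the member of widest range. Members and lists were chosen with earlier results of these data known. Alternatives changed the pseudocount, filter, scaling, test, length trend, replicate block and libraries.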

Additional observations from a re-analysis of the deposited data

How the results depend on the processing

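With 2 libraries a group, the number of calls depended on the processing. The 42 genes higher and 167 lower in R became 0 and 0 without a filter on low values (limma, 2767 at an unadjusted p under 0.05), and 209 and 344 with a length trend removed. Voom gave 83 higher. Leaving out 1 library gave 96 to 438 higher and 193 to 665 lower. Of the 10 heat shock genes, 0 were called higher as reported, 1 with a mean of at least 5 FPKM, 1 with voom, 2 with a length trend removed and 0 to 2 when 1 library was left out, and 0 were called lower in any alternative. Inducible minus constitutive was 0.28 after quantile normalization and 0.54 with voom. On the TPM scale, which moved the median of all genes by 0.13, Hsp90aa1 was 0.023 and Hspd1 0.12, signs that follow from that shift. Hspd1 was 0.039 after quantile normalization and 0.0021 with a length trend removed. With 1 library left out, Hspd1 ran from -0.065 to 0.043, Dnajb1 from -0.020 to 0.22, Hsp90ab1 from -0.013 to 0.19, Hsf1 from -0.092 to 0.30 and Hspe1 from -0.47 to 0.083. The cause of these sign changes was not tested, except that leaving out a library also leaves 1 sample in a group, assumed to vary like the other group. Hspa1a had no value at a mean of at least 5 FPKM. Reads limit Hspa1a most.

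The labels give both groups the replicate numbers 1 and 2 but do not say that they pair. Across genes the difference of replicates 1 and 2 in R correlated with that in vehicle (r = 0.35, genes not being independent). With a replicate block, limma called 891 genes higher (7.32% of all tested) and 1009 lower (8.29%) on 1 residual degree of freedom. It called 4 heat shock genes higher, Hspa1a, Hspa1b, Hsph1 and Hspb1. The counts of alternatives given for single genes leave this block out.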
